A study of Mus musculus with 6 samples.

Results

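Messenger RNA was measured for 33 genes of the endoplasmic reticulum (ER) that fold, transport or degrade secretory proteins or signal from the ER when folding fails. The genes were chosen by function, as a list of symbols, with earlier results of these data known. They are 33 of the 53465 genes in the deposited table. All of them were matched in that table, and 32 passed the filter on low counts. The gene that did not pass was Derl3, with 1 to 4 counts per library.

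The samples came from EMT6, a mouse mammary carcinoma cell line. Polyadenylated RNA was sequenced in 6 libraries. In the PVITRO group, 3 libraries came from parental cells kept with an isotype control antibody. In the PTRVITRO group, 3 libraries came from cells labelled as resistant, which were grown with anti-PD-L1, an antibody to a tumor cell surface protein that restrains T cells. Both groups were cultured in the same RPMI medium with serum, with the antibody dosed at 0.5 μg/ml, for longer than 4 weeks. The cells grew in culture without immune cells, so the design compares antibody exposure of tumor cells alone, and whether the replicates were separate cultures or the groups were single clones is not stated in the labels. The study describes its replicates as technical unless it says otherwise, so the p-values cover only the spread between these libraries. In RNA from whole cultures, fewer cells with a transcript and less transcript per cell cannot be told apart.

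The total count ran from 17757341 to 32426739 per library, and a count of 3, taken as the floor, corresponds to 0.0925 to 0.168 CPM (reads scaled to library size). The common biological coefficient of variation between libraries of a group was 5.00%. Among epithelial markers, Krt8 (1077 CPM in PVITRO and 1086 CPM in PTRVITRO) and Krt18 (489 and 549 CPM) were abundant, and Krt19 (19.0 and 19.7 CPM) and Epcam (1.59 and 2.24 CPM) were low. Cdh1 was under the floor, with a mean count of 0.333, as was the mesenchymal marker Cdh2. Of the other mesenchymal markers, Vim stood at 1889 and 1890 CPM, Fn1 at 6645 and 5866 CPM and Zeb1 at 15.1 and 12.8 CPM. Groups did not overlap for Fn1 (log2 fold change -0.18, adjusted p = 0.208 by edgeR) and Zeb1 (-0.24, adjusted p = 0.292), with PTRVITRO lower, nor for Krt18 (0.17, adjusted p = 0.139) and Epcam (0.48, adjusted p = 0.392), with PTRVITRO higher. Their part in the results on ER genes was not tested. Among leukocyte markers, Ptprc had a count of 0 in all 6 libraries, Cd3e had a mean count of 0.333, and Cd68 was at 12.6 and 12.2 CPM. Transcript of Cd274, which encodes PD-L1, was 17.2 ± 1.18 CPM in PVITRO and 18.0 ± 0.600 CPM in PTRVITRO (SD, n = 3 each; adjusted p = 0.732 by edgeR).

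Secretory and membrane proteins enter the ER through the Sec61 channel and are folded there by chaperones, of which BiP, the product of Hspa5, is the most widely used. When unfolded proteins accumulate, 3 sensors in the ER membrane (IRE1, PERK and ATF6) start the unfolded protein response. IRE1 splices the mRNA of the transcription factor XBP1, ATF6 is cut to release a transcription factor, and both raise transcription of chaperones and of ER-associated degradation (ERAD), while PERK slows translation. Secretory tumor cells rely on this system.

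Many chaperone genes carry the ER stress response element (ERSE), at which ATF6 and XBP1 act together with the factor NF-Y. In the RefSeq promoter table (GRCm38.p6, 250 bases before to 50 after each start), 27 of the 33 genes had an entry. Manf, Sec61a1, Derl1, Hyou1, Hspa13 and Atf6 had none. Both strands were searched for ERSE (CCAAT and CCACG separated by 9 bases), for ERSE-II (ATTGG and CCACG separated by 1 base) and for the unfolded protein response element (TGACGTGG). ERSE was found in 7 of the 27 promoters (25.9%), against 37 of 27025 genes with a promoter (0.137%). ERSE-II was found in 2 of 27 (7.41%), against 12 of 27025 (0.0444%). The third motif was in 0 of 27 promoters, against 193 of 27025 (0.714%), which says only that these letters are not in this window. Of 70 promoters of other ER folding genes, 3 (4.29%) held ERSE and 4 (5.71%) held TGACGTGG.

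The 250 bases before the start are shown for 4 genes that differ in what the counts showed, and capitals mark the fixed letters of the match. Hspa5 had the highest transcript level of all 33 genes, Syvn1 had the lowest fold change of the genes with a match, Pdia6 had a fold change near 0, and Herpud1 holds ERSE-II.
Hspa5 (chr2:34771840-34772089, plus strand, ERSE): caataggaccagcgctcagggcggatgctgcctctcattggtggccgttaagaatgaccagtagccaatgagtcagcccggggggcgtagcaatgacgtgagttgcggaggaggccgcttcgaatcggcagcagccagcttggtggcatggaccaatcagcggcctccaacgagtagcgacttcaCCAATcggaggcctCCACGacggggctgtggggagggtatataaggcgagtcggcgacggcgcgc
Syvn1 (chr19:6046326-6046575, plus strand, ERSE): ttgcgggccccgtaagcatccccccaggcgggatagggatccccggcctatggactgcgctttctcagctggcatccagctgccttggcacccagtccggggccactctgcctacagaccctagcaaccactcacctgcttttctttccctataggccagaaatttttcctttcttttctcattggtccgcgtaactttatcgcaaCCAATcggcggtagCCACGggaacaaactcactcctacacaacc
Pdia6 (chr12:17266339-17266588, plus strand, ERSE): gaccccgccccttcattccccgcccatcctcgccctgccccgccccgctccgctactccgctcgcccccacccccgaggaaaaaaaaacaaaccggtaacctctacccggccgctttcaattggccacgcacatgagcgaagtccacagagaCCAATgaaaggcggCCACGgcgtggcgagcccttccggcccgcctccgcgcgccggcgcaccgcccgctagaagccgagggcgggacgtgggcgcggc
Herpud1 (chr8:94386179-94386428, plus strand, ERSE-II): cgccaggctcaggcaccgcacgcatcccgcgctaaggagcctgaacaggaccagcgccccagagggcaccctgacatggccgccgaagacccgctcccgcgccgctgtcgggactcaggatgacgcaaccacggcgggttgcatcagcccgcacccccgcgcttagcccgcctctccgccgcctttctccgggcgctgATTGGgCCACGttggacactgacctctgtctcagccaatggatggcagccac

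The other matches are given in the orientation of the motif, with the fixed letters in capitals, to show how the spacer differs while the ends are the same.
Derl3 (chr10:75893242-75893260, ERSE): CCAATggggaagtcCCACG
Hsp90b1 (chr10:86705638-86705656, ERSE): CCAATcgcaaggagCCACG
Hsp90b1 (chr10:86705533-86705551, ERSE): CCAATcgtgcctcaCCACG
Dnajc3 (chr14:118937827-118937845, ERSE): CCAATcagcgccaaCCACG
Creld2 (chr15:88819520-88819538, ERSE): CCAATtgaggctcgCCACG
Dnajb11 (chr16:22857852-22857862, ERSE-II): ATTGGcCCACG

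Distances are counted back from the RefSeq start. The ERSE of Hspa5 began 65 bases before the start, that of Syvn1 44 bases and that of Pdia6 98 bases before it. In the other genes with ERSE the match began between 105 and 212 bases before the start, and Hsp90b1 held 2 of them. The ERSE-II of Herpud1 began 52 bases before the start, and that of Dnajb11 lay after it, at bases 7 to 17. All of these are matches of letters, and factor binding was not measured here.

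Levels of different genes were compared per kilobase of annotated exon, since longer transcripts give more reads. Hspa5 was the highest in PVITRO, at 993 ± 50.7 CPM per kilobase (SD, n = 3). P4hb (protein disulfide isomerase, 283 ± 11.8) and Hsp90b1 (the ER chaperone GRP94, 261 ± 6.94) followed, on the same scale. In PVITRO the libraries of these 3 genes did not overlap, whereas P4hb and Hsp90b1 overlapped in PTRVITRO, at 260.4 ± 17.5 and 257 ± 4.60 CPM per kilobase. Pdia6, another disulfide isomerase, and Derl1, a membrane protein of ERAD, came next at 109 ± 5.69 and 108 ± 2.50, which did not differ beyond their spread. Serp1 (80.1 ± 2.17) and Herpud1 (76.3 ± 5.13) also lay within their spread of each other. The lowest of the tested genes was Eif2ak3, which encodes PERK, at 1.91 ± 0.107 CPM per kilobase. Derl3, a paralog of Derl1 and Derl2, was at or near the floor in all libraries (0.04 to 0.14 CPM, unscaled by length). Hspa5 alone made up 39.1% to 43.7% of the summed CPM of the 33 genes.

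**Figure D1:**
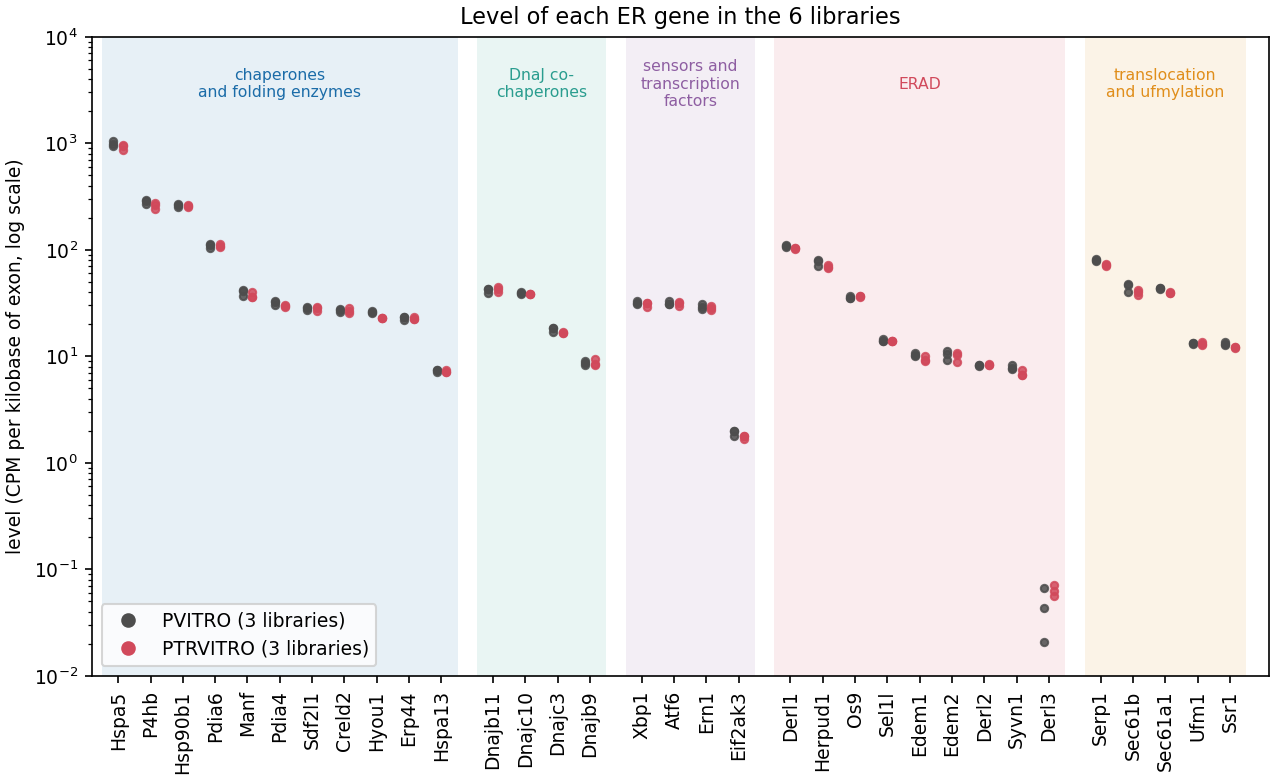
Level of each ER gene in CPM per kilobase of exon (log axis), by role group, with 1 point per library (PVITRO grey, PTRVITRO red, 3 libraries each). Hspa5 stands highest at 993 CPM per kilobase in PVITRO, Eif2ak3 is the lowest tested gene at 1.91, and Derl3 lies at the floor.

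The comparison of PTRVITRO with PVITRO asked whether long exposure of tumor cells to the antibody changes transcripts of the ER folding system. None of the 32 tested genes passed: the adjusted p was below 0.05 for 0 of 32 by edgeR's quasi-likelihood test with Benjamini-Hochberg adjustment over 14217 genes. Over all tested genes the share called was 0.246%, with 0.0985% higher and 0.148% lower in PTRVITRO. Without adjustment, 12 of the 32 (37.5%) had p below 0.05, against 11.4% of all tested genes. All 12 were lower in PTRVITRO. Of the 14217 tested genes, 872 had such a p and were lower, and 748 had such a p and were higher. DESeq2 called 1 of the 32, Hyou1, and 0.946% of the 11735 genes to which it gave an adjusted p. Limma-voom called 0 of them and 0.218% of all tested genes. The genes were measured in the same libraries and many share regulators, so they are not independent observations.

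The direction was uneven. The log2 fold change was below 0 for 27 of the 32 genes (84.4%), against 51.5% of all tested genes. The 5 genes above 0 were Os9, Derl2, Dnajb11, Dnajb9 and Sdf2l1, of which Os9 was the highest at 0.04 on the log2 scale. Leaving out PTRVITRO replicate 3 gave 10 genes above 0, leaving out PVITRO replicate 1 gave 9, and leaving out PVITRO replicate 2 gave 3. The median log2 fold change of the 32 genes was -0.05, and that of all tested genes was -0.004. In 9 of the 32 (28.1%) the 3 PTRVITRO libraries were all below the 3 PVITRO libraries, and in 0 were they all above. Over all tested genes 17.6% had groups that did not overlap, 9.33% with PTRVITRO lower and 8.27% with PTRVITRO higher.

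Differences were also small. All 32 intervals (95%) of the fold change lay within 1.25-fold in either direction, a bound that was not part of the plan. Larger differences lie outside the intervals that this spread between libraries gives. The interval that reached farthest from 0 was that of Eif2ak3, from -0.31 to 0.04 on the log2 scale. Standard errors of the log2 fold changes ran from 0.0317 to 0.0816 with a median of 0.0440.

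**Figure D2:**
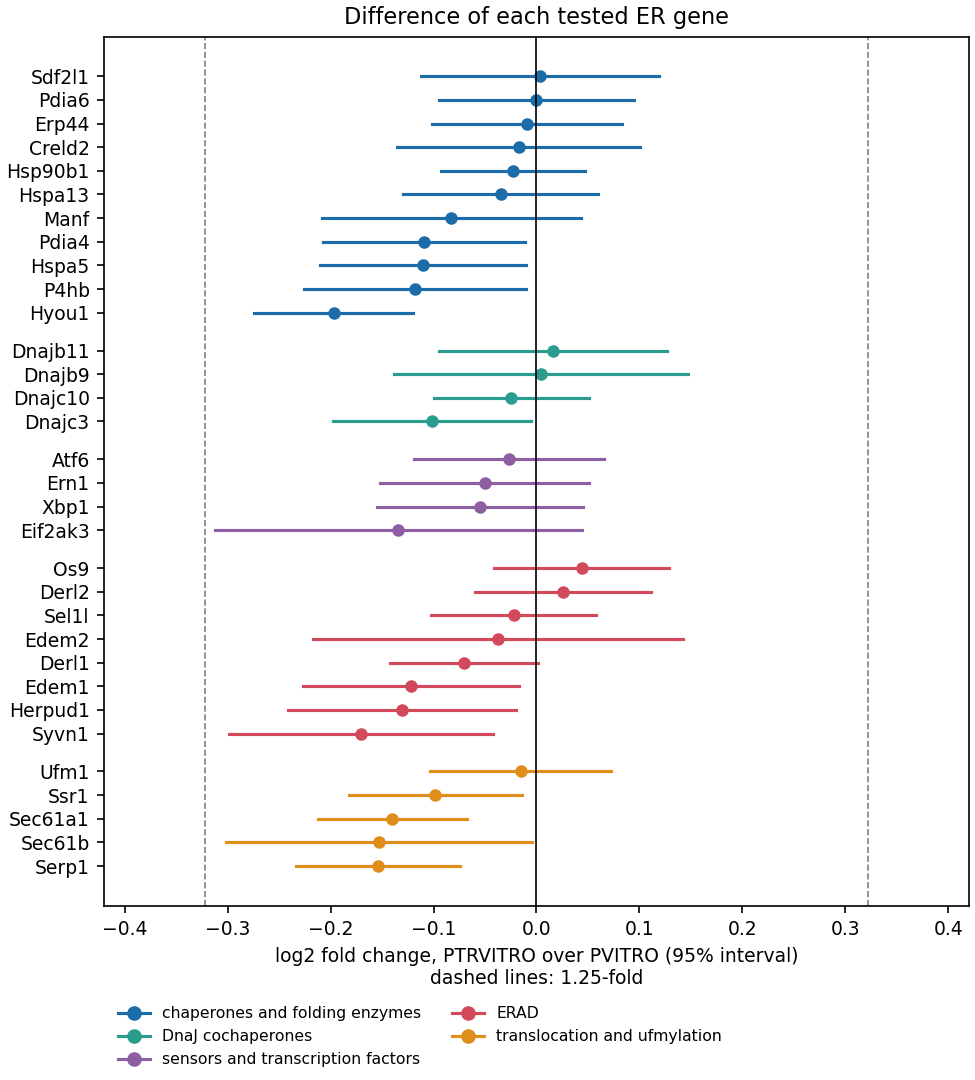
Log2 fold change of PTRVITRO over PVITRO for the 32 tested ER genes with 95% intervals from the edgeR fit, coloured by role group, with dashed lines at 1.25-fold. All intervals lie inside the dashed lines, 12 of them lie wholly below 0, and 0 lie wholly above 0.

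Among the 11 chaperones and folding enzymes, 10 had a log2 fold change below 0 and 4 had an unadjusted p below 0.05, with a median log2 fold change of -0.03. Of all tested genes 51.5% were below 0 and 11.4% had such a p. Hyou1, which encodes the ER chaperone GRP170 that exchanges the nucleotide of BiP, had the smallest p of the 32 tested genes. It lies at chr9:44379490-44392369 on the plus strand of GRCm38 (ENSMUSG00000032115.14, protein coding). Its level was 189, 184 and 194 CPM in the PVITRO libraries and 165, 164 and 165 CPM in the PTRVITRO libraries. The 3 PTRVITRO values lay close together and below every PVITRO value. The log2 fold change was -0.20 (SE 0.0351, 95% interval -0.27 to -0.12), or -12.8%, and ranked 46 of 14217 by p. The adjusted p was 0.0515 by edgeR, just over the threshold, and 0.00451 by DESeq2. With edgeR it was 0.0453 with the replicate number as a block, 0.0371 with at least 10 counts required in every sample, and 0.00313 without a filter. Leaving out each library in turn gave adjusted p-values from 0.0288 (without PVITRO replicate 2) to 0.305.

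Hspa5, at chr2:34771970-34777547 on the plus strand, was 4016, 4435 and 4148 CPM in the PVITRO libraries and 3647, 3984 and 4039 CPM in the PTRVITRO libraries. The groups overlapped, since PTRVITRO replicate 3 was above PVITRO replicate 1. The log2 fold change was -0.11 (SE 0.0454, adjusted p = 0.386 by edgeR), and ran from -0.137 to -0.0648 with each library left out in turn. P4hb was 837, 771 and 819 CPM against 794, 747 and 694 CPM, with overlapping groups (log2 fold change -0.12, adjusted p = 0.390 by edgeR). Its log2 fold change was -0.165 without PTRVITRO replicate 1 and -0.0658 without PTRVITRO replicate 3. Pdia4, a further disulfide isomerase, was 78.1, 73.0 and 79.0 CPM against 72.9, 69.2 and 70.9 CPM. Its groups did not overlap, but their nearest libraries almost met (log2 fold change -0.11, adjusted p = 0.383 by edgeR).

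The remaining chaperone genes were closer to equal. Hsp90b1 was 1068, 1022 and 1073 CPM in PVITRO and 1052, 1043 and 1016 CPM in PTRVITRO (log2 fold change -0.02, 95% interval -0.09 to 0.05). Manf, which encodes a secreted neurotrophic factor that binds BiP, had a log2 fold change of -0.08 (95% interval -0.21 to 0.04). Pdia6 was 408.5 ± 21.3 CPM in PVITRO and 408.3 ± 13.8 CPM in PTRVITRO, an interval of -0.10 to 0.10 on the log2 scale. Hspa13 (an HSP70 relative, -0.03), Creld2 (an ER stress-inducible secreted protein, -0.02), Erp44 (a retention factor for proteins with exposed thiols, -0.01) and Sdf2l1 (a BiP cofactor, 0.003) had log2 fold changes near 0. The signs of Pdia6, Erp44 and Sdf2l1 changed with the scaling, tool or filter and are not read as a direction.

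DnaJ proteins bring unfolded substrates to BiP and start its ATP cycle. Of the 4 tested, 2 had a log2 fold change below 0, with a median of -0.01. Dnajc3 (p58IPK, which also restrains PERK) was 94.5, 87.5 and 95.2 CPM in PVITRO and 87.4, 84.9 and 85.8 CPM in PTRVITRO. The groups did not overlap, but their nearest libraries almost met (log2 fold change -0.10, SE 0.0435, adjusted p = 0.412 by edgeR). Dnajc10, a reductase that helps ERAD, was among the steadiest transcripts, at 195 ± 4.28 and 192 ± 1.72 CPM. Dnajb11 (log2 fold change 0.02, 95% interval -0.09 to 0.13) and Dnajb9 (0.004, -0.14 to 0.15), which represses IRE1, had overlapping groups, and the sign of Dnajb9 changed under a stricter filter.

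The 4 genes of the sensors and of XBP1 were the group with no unadjusted p below 0.05. Ern1, which encodes IRE1α, was 228, 255 and 239 CPM in PVITRO and 224, 234 and 241 CPM in PTRVITRO (log2 fold change -0.05, adjusted p = 0.722 by edgeR). With each library left out in turn, the log2 fold change of Ern1 ran from -0.0819 to -0.00518. Atf6 was 284, 304 and 287 CPM against 273, 291 and 296 CPM (log2 fold change -0.03, adjusted p = 0.859 by edgeR). Both groups overlapped, and in both genes PVITRO replicate 2 was the highest library. Xbp1 was 102, 103 and 108 CPM against 104, 102 and 94.96 CPM, with overlapping groups (95% interval -0.16 to 0.05 on the log2 scale). Counts per gene do not separate spliced from unspliced Xbp1, so the activity of IRE1 was not measured here. Eif2ak3 was 11.9, 11.95 and 10.8 CPM against 10.02, 10.8 and 10.8 CPM, the least precise of the 4 (log2 fold change -0.13, SE 0.0808, adjusted p = 0.574 by edgeR).

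ERAD draws misfolded proteins back to the cytosol for the proteasome. Of the 8 tested ERAD genes, 6 had a log2 fold change below 0 and 3 had an unadjusted p below 0.05, with a median of -0.05. Over all tested genes these shares were 51.5% and 11.4%. Syvn1, which encodes the ubiquitin ligase HRD1, lies at chr19:6046576-6053712 on the plus strand. It was 37.5, 37.1 and 40.1 CPM in PVITRO and 36.3, 32.6 and 32.6 CPM in PTRVITRO. Every PTRVITRO library was below every PVITRO library, with PTRVITRO replicate 1 close to the PVITRO values. The log2 fold change was -0.17 (SE 0.0583, adjusted p = 0.292 by edgeR).

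Herpud1, a membrane protein that joins HRD1 to its partners, was 186, 164 and 184 CPM in PVITRO and 168, 162 and 157 CPM in PTRVITRO. The groups overlapped because PVITRO replicate 2 was low (log2 fold change -0.13, adjusted p = 0.343 by edgeR). Edem1, a lectin-like mannosidase that marks glycoproteins for degradation, was 65.5, 66.0 and 69.1 CPM against 64.9, 60.2 and 58.8 CPM, with groups that did not overlap (log2 fold change -0.12, adjusted p = 0.356 by edgeR). Derl1 was 367, 363 and 351 CPM against 339, 342 and 347 CPM, also without overlap (log2 fold change -0.07, adjusted p = 0.443 by edgeR). Sel1l, the partner of HRD1, was 121 ± 2.54 CPM in PVITRO and 119 ± 1.13 CPM in PTRVITRO. Edem2 (log2 fold change -0.04), Derl2 (0.03) and Os9 (0.04), a lectin that hands substrates to HRD1, had overlapping groups, and Edem2 had the widest spread, with a 1.26-fold range over the 6 libraries.

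The genes of translocation and ufmylation had the lowest median log2 fold change of the 5 role groups, -0.14. All 5 were below 0, and 4 had an unadjusted p below 0.05, against 51.5% and 11.4% of all tested genes. Sec61a1, the channel subunit, lies at chr6:88503579-88518905 on the minus strand. It was 297, 289 and 296 CPM in PVITRO and 262, 272 and 267 CPM in PTRVITRO. The groups were well apart, with PTRVITRO replicate 2 the nearest to PVITRO. The log2 fold change was -0.14 (SE 0.0328, adjusted p = 0.139 by edgeR).

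Serp1, which encodes a small protein that stabilises membrane proteins at the channel, lies at chr3:58519817-58525892 on the minus strand. It was 362, 366 and 381 CPM in PVITRO and 321, 334 and 341 CPM in PTRVITRO, without overlap (log2 fold change -0.15, SE 0.0361, adjusted p = 0.140 by edgeR). Ssr1, a subunit of the translocon-associated complex, was 135, 133 and 141 CPM against 125, 129 and 128 CPM, also without overlap (log2 fold change -0.10, adjusted p = 0.352 by edgeR). Sec61b, the small channel subunit, was 60.2, 50.5 and 59.4 CPM against 53.1, 51.0 and 48.2 CPM. Its groups overlapped because PVITRO replicate 2 was low (log2 fold change -0.15, adjusted p = 0.424 by edgeR). Ufm1, the ubiquitin-like modifier that is attached to ribosomes at the ER, was 79.1 ± 1.24 CPM in PVITRO and 78.2 ± 2.35 CPM in PTRVITRO.

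**Figure D3:**
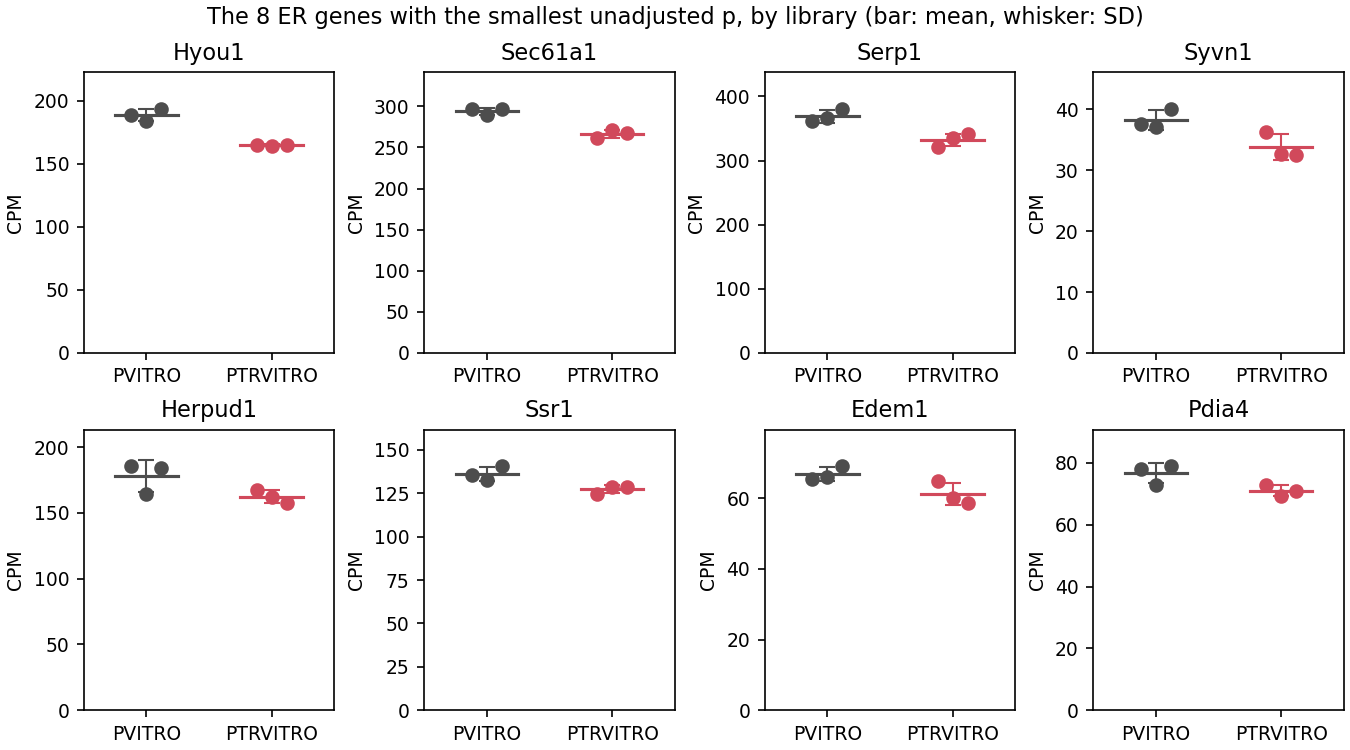
CPM in each library for the 8 ER genes with the smallest unadjusted p, with the mean (bar) and SD (whisker) of 3 libraries per group; each axis starts at 0. The groups are apart in Hyou1, Sec61a1, Serp1, Syvn1, Ssr1, Edem1 and Pdia4 and overlap in Herpud1, and no adjusted p was below 0.05.

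The genes of the list also differed together by library. Their summed CPM was 9940, 10152 and 10096 in PVITRO and 9317, 9595 and 9537 in PTRVITRO, a mean of 10063 ± 110.1 against 9483 ± 147 (-5.76%). The 3 PTRVITRO sums lay below the 3 PVITRO sums, and did so without Hspa5 as well (5863 ± 127 against 5593 ± 87.3, or -4.61%), a check chosen after seeing the data. By role, the summed CPM differed by -8.58% for translocation and ufmylation, -6.09% for chaperones and folding enzymes and -4.36% for ERAD, each without overlap of the groups. The summed CPM, in total and by role, was not among the results planned beforehand. Without Hspa5 the chaperone sum was 2943, 2757 and 2923 CPM in PVITRO and 2844, 2752 and 2662 CPM in PTRVITRO, and the groups overlapped (-4.22%, also chosen after seeing the data). The sums for the sensors and XBP1 (-2.82%) and for the DnaJ genes (-1.89%) overlapped.

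Single libraries took unequal parts. PTRVITRO replicate 3, the shallowest library, had the lowest value of 13 of the 32 genes and the highest of 0, while it was the lowest library for 22.7% and the highest for 16.9% of all tested genes. PVITRO replicate 3 had the highest value of 12 and the lowest of 0, against 17.4% and 12.8% of all tested genes. The median log2 deviation of the 32 genes from their PVITRO mean was 0.01, -0.04 and 0.03 in the PVITRO libraries and -0.04, -0.05 and -0.08 in the PTRVITRO libraries. PVITRO replicate 2 was close to PTRVITRO replicates 1 and 2 on this measure. The same median over all tested genes was 0.0044, -0.012 and 0.0075 in PVITRO and 0.0070, -0.0049 and -0.014 in PTRVITRO. PVITRO replicate 2 and PTRVITRO replicate 3 were each the lowest of their own group, in the ER genes and over all tested genes. The part of depth and of this shift in the values of the ER genes was not tested. Leaving out PVITRO replicate 3, PTRVITRO replicate 2 or PTRVITRO replicate 3 left 4 genes with an unadjusted p below 0.05 in place of 12, leaving out PVITRO replicate 1 left 6, and using no scaling factor left 7.

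**Figure D4:**
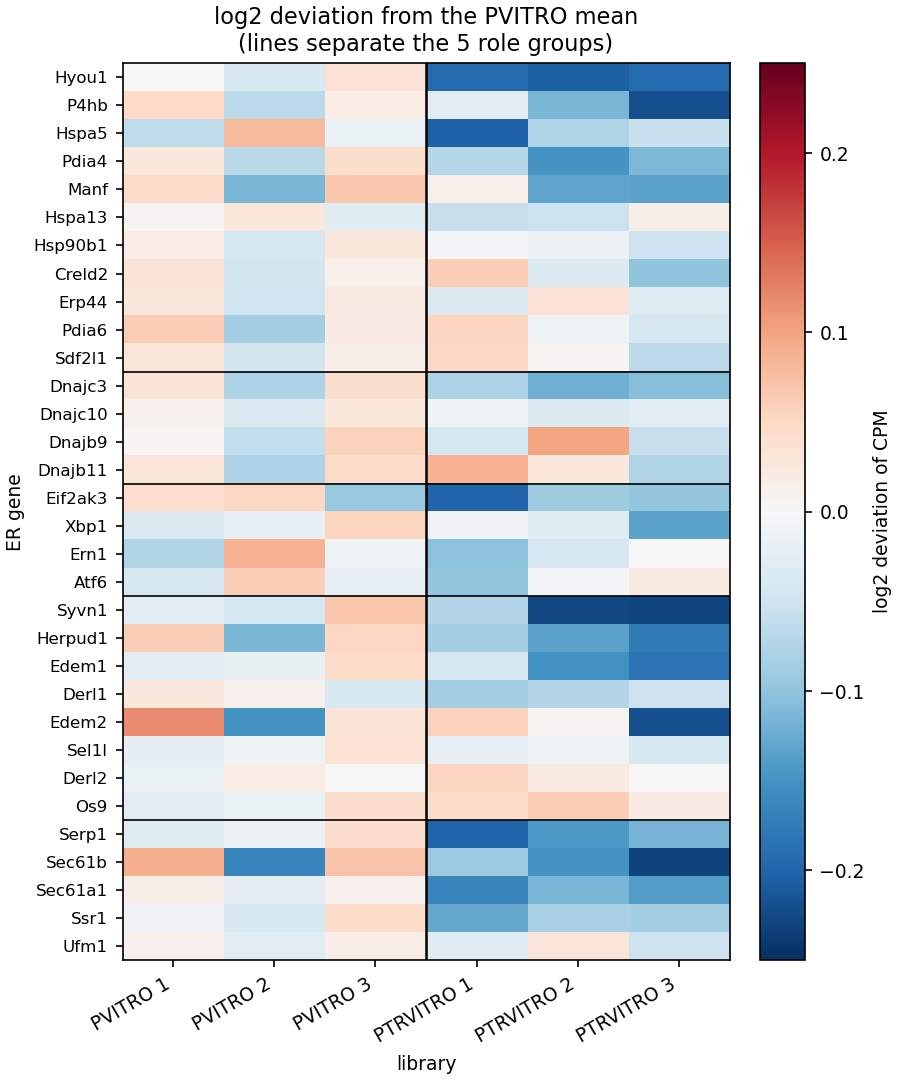
Log2 deviation of CPM from the PVITRO mean for the 32 tested ER genes (rows, by role group) in each of the 6 libraries (columns), blue below and red above. Many genes are below the PVITRO mean in all 3 PTRVITRO libraries, Hyou1, Sec61a1, Serp1 and Ssr1 among them. PVITRO replicate 2 is below that mean for most chaperones.

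The tested genes with ERSE covered most of the range seen in the list. Of these 6 genes, Syvn1 was the lowest with a log2 fold change of -0.17 and Pdia6 was the nearest to 0, with Hspa5 at -0.11, Dnajc3 at -0.10, Hsp90b1 at -0.02 and Creld2 at -0.02, and their median was -0.06. The 18 tested genes with a promoter entry and no match had a median of -0.04 and a range from -0.15 to 0.04. Herpud1 and Dnajb11, with ERSE-II, were at -0.13 and 0.02. These values are a description of few genes, without a test.

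A further 88 genes of ER folding were listed by function, again with earlier results of these data known. Of these, 87 were tested and Uggt2 was not. By edgeR's quasi-likelihood test 0 of 87 were called, and 20 had an unadjusted p below 0.05, 16 of them lower and 4 higher in PTRVITRO. These are 0% and 23.0% of the 87, against 0.246% and 11.4% of all tested genes. DESeq2 called 1, Chac1. The log2 fold change was below 0 for 57 (65.5%, against 51.5% of all tested genes) and above 0 for 30, with a median of -0.04. The 7 tested genes of the calnexin cycle, which folds glycoproteins, were all below 0 with a median of -0.06, Prkcsh at -0.09 and Mogs at -0.11. Of 19 genes of the translocon, signal peptidase and glycosylation, 15 were below 0, with Ssr2 at -0.13 (adjusted p = 0.208 by edgeR) and Spcs1 above 0 at 0.10.

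The further lists of oxidative folding and of ERAD and ubiquitination each had a median log2 fold change of 0.01. In oxidative folding, Qsox1, a sulfhydryl oxidase, was 61.7, 59.1 and 62.6 CPM in PVITRO and 53.3, 52.8 and 54.0 CPM in PTRVITRO, without overlap (log2 fold change -0.20, adjusted p = 0.0919 by edgeR). Selenof, an ER selenoprotein, had groups apart in the other direction (log2 fold change 0.13, adjusted p = 0.163 by edgeR). In the further ERAD list, Erlec1, a lectin, was at -0.14. Among BiP cofactors, with a median of -0.01, Dnajb14 was at 0.10 and Dnajc1 at -0.05. In ufmylation, with a median of -0.04, Cdk5rap3 was at -0.16 (adjusted p = 0.536 by edgeR).

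The further transcription factors and proteases of the response had a median of -0.04. Yod1, a deubiquitinase that works with ERAD, was 14.6, 16.02 and 16.7 CPM in PVITRO and 18.8, 20.2 and 21.7 CPM in PTRVITRO, above it in every library (log2 fold change 0.35, adjusted p = 0.102 by edgeR). Mbtps1, the protease that cuts ATF6, was 127, 121 and 120.2 CPM against 112, 107 and 104 CPM (log2 fold change -0.18, adjusted p = 0.139 by edgeR). Creb3l1, a membrane-bound transcription factor named after its value was seen, had the lowest log2 fold change of these genes at -0.33, but its groups overlapped (adjusted p = 0.439 by edgeR).

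In the PERK and ATF4 arm, 7 of 11 genes were below 0, with a median of -0.02. Chac1, a glutathione-degrading enzyme that ATF4 induces, was 152, 148 and 149 CPM in PVITRO and 135, 132 and 133 CPM in PTRVITRO, without overlap (log2 fold change -0.17, adjusted p = 0.0898 by edgeR). Sesn2, a sestrin that restrains mTORC1, was 137, 128 and 138 CPM against 122, 116 and 121 CPM, also without overlap (log2 fold change -0.17, adjusted p = 0.154 by edgeR). Atf4 and Ddit3 (CHOP), the transcription factors of this arm, had log2 fold changes of -0.02 and 0.01. Eif2s1, the translation factor subunit that PERK phosphorylates, was above PVITRO in every PTRVITRO library (log2 fold change 0.11, adjusted p = 0.235 by edgeR). Of the subunits of its phosphatase, Ppp1r15a was below PVITRO in every PTRVITRO library (-0.08, adjusted p = 0.323 by edgeR) and Ppp1r15b above it (0.05, adjusted p = 0.594 by edgeR). These 5 genes were named after their values were seen.

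**Figure D5:**
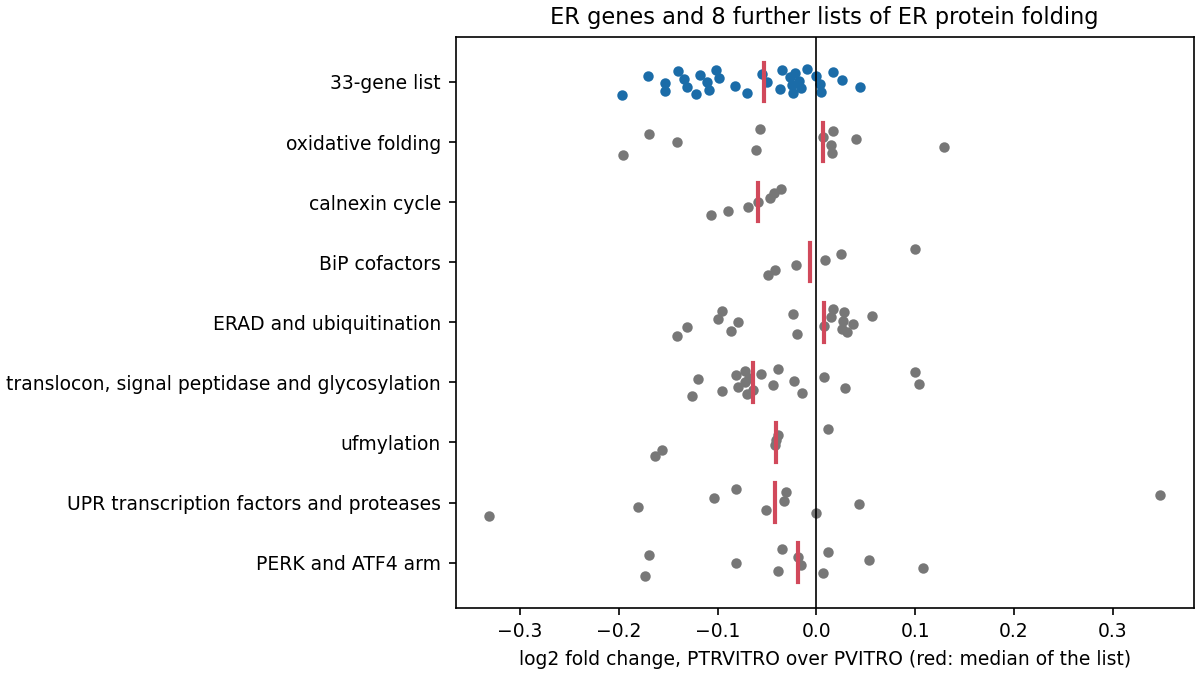
Log2 fold change of PTRVITRO over PVITRO for the 32 tested ER genes (blue) and for 8 further lists of ER folding genes (grey), 1 point per gene, with a red line at each list's median. Medians lie between -0.06 and 0.01, and Yod1 at 0.35 and Creb3l1 at -0.33 lie farthest from 0.

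Some reads could be shared between genes. Transcripts of 5 of the 33 genes were at least 95% identical over at least 200 bases to a transcript of another annotated gene. For Derl1 this was the processed pseudogene Gm35638 (mean count 410 against 9131 for Derl1). Sec61a1 shares 549 exon bases with the antisense gene Gm44170 (mean count 440.6 against 7284), and Hsp90b1 shares exon with 1810014B01Rik on the opposite strand (781 against 27213). Ufm1 has Gm38166 (94.6 counts) and Eif2ak3 has Gm43292 (1.917 counts). Syvn1 overlaps Mrpl49 by 91 exon bases and Serp1 overlaps Eif2a by 72, each on the opposite strand. The libraries kept strand, but whether the counting used it is not stated, so reads of these pairs may be assigned to either gene.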

How the data were processed

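The authors sequenced stranded polyadenylated RNA libraries, checked reads with FastQC 0.11.5, aligned them to mouse GRCm38 with STAR 2.6.0a and deposited gene-level estimated counts (RSEM 1.3.1), not scaled between samples. Between 12.5% and 13.8% of a sample's values were not whole. No batch is given, and each of the 6 columns was matched to its sample by its description.

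Here the counts were rounded, genes with few counts removed with filterByExpr of edgeR (minimum count 10, minimum total 15), and upper-quartile factors computed. PTRVITRO was set against PVITRO with edgeR 4.0.16 (R 4.3.3) in its quasi-likelihood F test, with no covariate, and Benjamini-Hochberg adjustment ran over the 14217 genes tested. A gene is called at an adjusted p below 0.05. CPM values use the upper-quartile factors and are given as mean ± SD over 3 libraries. The F statistic gave standard errors and 95% intervals. Gene positions and exon lengths come from GENCODE M21 (GRCm38), whereas the authors used GENCODE M16, and promoters come from RefSeq (GRCm38.p6). Floors of 3 counts cover counting error only. Replicates differed by more than sampling noise (chi-square per degree of freedom 2.64 to 7.63), so all were kept.

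The members and lists were chosen with earlier results of these data known. Named genes are all members, Cd274 and, in each further list, every called gene and the 2 genes of smallest p whose mean count was at least 50. Some genes that this rule or the marker lists include are not reported here. The alternatives tried were DESeq2 1.42.0 and limma-voom (limma 3.58.1), TMM or no scaling factor, no filter or a stricter one (at least 10 counts per sample), replicate number as a block, and each sample left out in turn. A planned search of protein ends for ER retention signals was not run, since protein sequences were not used here.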

Additional observations from a re-analysis of the deposited data

How the results depend on the processing

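The median log2 fold change of the ER genes stayed below 0 under every alternative run, from -0.0476 to -0.0643 when libraries were left out in turn. No ER gene was called as reported, and the calls that appeared elsewhere were of Hyou1, Hspa5 and Serp1. DESeq2 called 1 ER gene (Hyou1), 1 further ER gene (Chac1) and 111 genes in all. Without a filter on low counts the calls were 3 ER genes (Hyou1, adjusted p = 0.00313, Serp1, 0.0241, and Hspa5, 0.0275), 6 further genes (Creb3l1, Chac1, Sesn2, Mbtps1, Qsox1 and Yod1) and 400 in all, by edgeR. With at least 10 counts in every sample, edgeR called 1 ER gene (Hyou1, adjusted p = 0.0371) and 54 in all, and 3 ER genes were above 0. With no scaling factor, 7 ER genes had an unadjusted p below 0.05. The cause of these shifts was not tested. Leaving out libraries in turn gave 0 to 1 ER genes called, 4 to 12 with an unadjusted p below 0.05, 3 to 10 above 0 and 8 to 64 genes called in all, with 64 without PVITRO replicate 2, 11 without PVITRO replicate 1, 9 without PVITRO replicate 3, 12 without PTRVITRO replicate 2 and 8 without PTRVITRO replicate 3.

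Replicate numbers as a block gave 1 ER gene called (Hyou1, adjusted p = 0.0453 by edgeR), 1 further gene (Yod1), 68 genes in all and a Pdia6 log2 fold change of 0.000423. Same-numbered samples had correlations of deviations of 0.109, 0.0950 and -0.0556, and differently numbered ones ran from -0.158 to 0.0674. These values do not settle whether the numbers mark a pairing, and the numbers were not read as one. The block changed no other call of an ER gene.

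Signs turned only for genes near 0. Pdia6 was at 0.00119 with TMM, 0.0123 with no scaling factor, 0.00439 with DESeq2, 0.00327 with limma-voom and 0.00153 without a filter. Erp44 was at 0.00304 with no scaling factor, and Sdf2l1 and Dnajb9 were at -0.00154 and -0.000478 under the stricter filter. Leaving out libraries in turn, the ranges that crossed 0 were -0.0403 to 0.0372 for Pdia6, -0.0343 to 0.00927 for Erp44, -0.0232 to 0.0345 for Sdf2l1, -0.0619 to 0.0199 for Creld2, -0.0483 to 0.0354 for Dnajb9, -0.0205 to 0.0614 for Dnajb11, -0.0459 to 0.00943 for Atf6, -0.109 to 0.0365 for Edem2 and -0.0386 to 0.00480 for Ufm1. Of 224 comparisons of single ER genes under the other alternatives, 209 kept direction and side of the threshold, as did 170 of 192 with a library left out. The counts of Derl3 were too low to allow a comparison.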
